A study of Mus musculus with 10 samples.

Results

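The homeobox and Zic regional factors are transcription factors that tell neural cells where along the body axis and in which brain region they lie. Members were all probe sets whose single symbol in the array annotation began with Hoxa, Hoxb, Hoxc, Hoxd, Lhx, Dlx, Emx, Otx, Meis, Pbx, Pou3f or Nkx, or with 1 of the stems of Pax6, Six3 and Zic1 and then a digit. The rule found 121 of 22626 probe sets, for 88 of 12393 genes, and no probe set for Emx. A further 3 probe sets named 2 neighbouring Hox genes each and were left out. Not every member is a homeobox factor: Pbxip1 encodes a protein that binds PBX factors, Zic genes encode zinc finger factors, and Dlx1as, Dlx6os2 and Hoxa11os are antisense or opposite-strand transcripts.

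Brain RNA of C57BL/6 mice, an inbred strain, was hybridised to Affymetrix MOE430A arrays, which read each transcript with 1 or more sets of short probes. The 10 arrays were of 4 groups. At 1 week of age each sex label had 3 arrays, and at 8 weeks each had 2. No treatment or altered allele is named, and the labels say brain without naming a region. They do not say that numbered brains came from separate animals, so p-values measure only the spread between these samples. At 1 week, Xist and Eif2s3y, transcripts of the X and Y chromosomes, opposed the sex label in 4 of 6 arrays, and replicate 3 labelled female carried both, with Xist at 866 and Eif2s3y at 53.9. Ages were therefore compared over both labels, and no comparison of the sexes was made.

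Hox genes are transcribed in nested domains of the hindbrain and spinal cord, and the forebrain and midbrain are patterned by other homeobox families. MEIS and PBX proteins bind DNA together with HOX and other homeodomain proteins. After patterning, many of these factors stay on in chosen neurons or glia, where they serve as markers of origin: Lhx6 and Dlx genes in GABA neurons of the ventral forebrain, Nkx2-2 in the oligodendrocyte lineage, and Zic1 and Pax6 in cerebellar granule cells.

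Few members were readable in brain at these ages. A probe set counted as above background when its mean log2 value over all 10 arrays reached the 40th percentile of all probe sets, a level near a normalized intensity of 73.9. By that rule 36 of 121 member probe sets, for 29 genes, were above background (29.8%), against 60% of all probe sets, a share that the threshold itself sets. In Dlx1, Pou3f3 and both probe sets of Pou3f1 the 8-week mean alone lay under 73.9, and in Zic2 the 1-week mean did. Members that passed through 1 age had to differ. Just inside the limit were Dlx1, with a mean of 85.5, and the dimmer probe set of Zic4, with 82.4. Lhx9 and Dlx5 lay just outside, at 75.6 and 74.3, since the limit was set on the mean of log values. Requiring every array of 1 age to exceed the 40th percentile of its own array left 31.

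**Figure D1:**
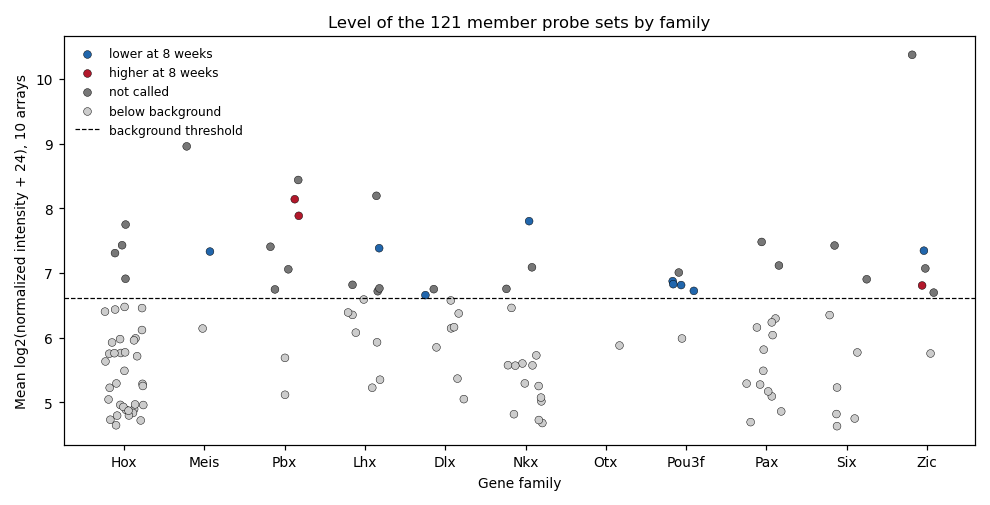
Each point is 1 of the 121 member probe sets, placed by gene family on the horizontal axis and by its mean log2 of normalized intensity plus 24 over 10 arrays on the vertical axis, with the background threshold dashed and colour giving the call for age. Only 4 of 38 Hox probe sets lie above the line, against 5 of 6 for Pou3f and for Zic; levels of different probe sets do not rank genes, since probes differ in brightness.

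Age was the comparison. A probe set was called when its change, 8 weeks minus 1 week, had an adjusted p under 0.05 in limma over all 13576 probe sets above background. Of the 36 members 12 were called, which is 33.3%, against 46.0% of all probe sets tested. Among these, 9 were lower at 8 weeks (25%, against 24% of all) and 3 were higher (8.33%, against 22.0%). The ages did not overlap in 10 members, 27.8%, against 35.4% of all. The median change of the 36 was -0.05 on the log2 scale, and that of all tested was -0.02. The shares of falls therefore lay near the background, and the shares of calls and of rises below it. The tested members were dimmer, with a median intensity of 113.2 against 248.5 for all tested. The 24 added before taking log2 makes changes of dim probe sets look smaller. The part of dimness in these shares was not tested. Fewer cells that carry a transcript and less transcript per cell cannot be told apart in these whole-tissue samples.

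The direction depended on the scale. Deposited intensities were brighter at 8 weeks, with array medians from 67.5 to 112 at 1 week and from 113 to 156 at 8 weeks, so arrays were quantile-normalized and changes are relative to the whole distribution. Without that step the median of all probe sets was 0.47 and the members split into 1 lower and 21 higher. With arrays scaled to spike-in controls the median was 0.19 and the split 6 lower to 6 higher. When the 4 arrays opposed by their sex transcripts were dropped and the model held only age, 33 members were tested and 6 called, 4 lower and 2 higher, against 29.8% of all. Without replicate 2 labelled male at 8 weeks 7 were called, 5 of them lower (19.4%, against 38.5% of all). Without replicate 1 labelled female at 8 weeks 8 were called, again 5 of them lower (21.6%, against 39% of all).

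**Figure D2:**
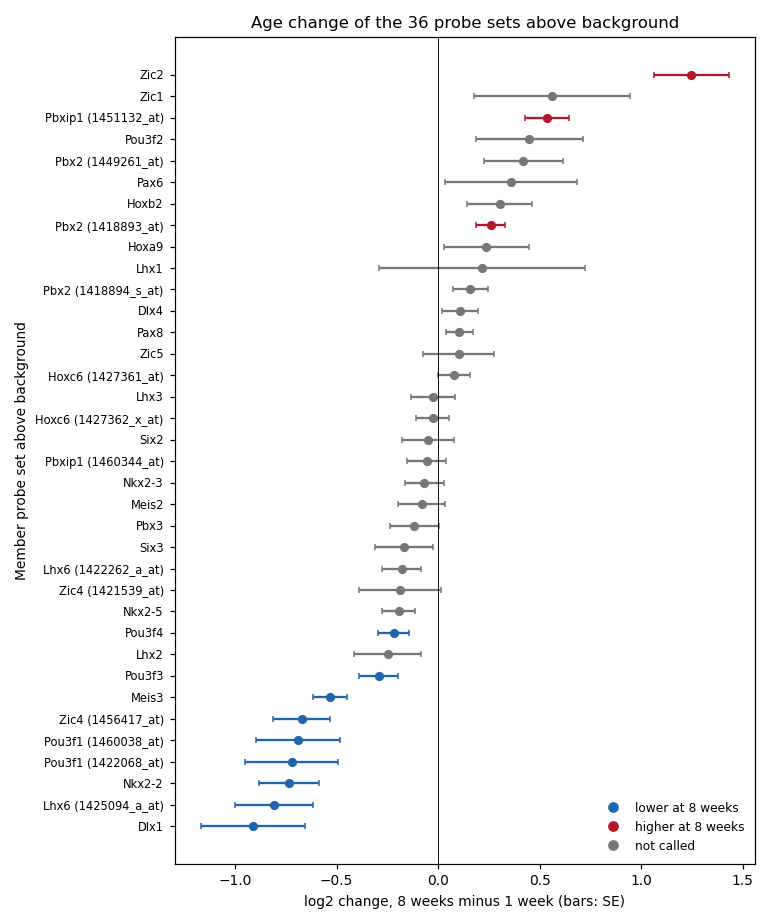
Points give the log2 change at 8 weeks minus 1 week of each of the 36 member probe sets above background, with bars for the SE and colour for the call; probe set names follow genes with several. Changes run from -0.91 for Dlx1 to 1.25 for Zic2, and the grey points, which were not called, lie between -0.25 for Lhx2 and 0.56 for Zic1.

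Zic genes, which act in the cerebellum, the midline and the meninges, held both a rise and a fall. Zic2 had the largest change of any member above background. At 1 week it ran from 47.0 through a median of 56.0 to 63.6, all of these under the background level, and at 8 weeks it read 173 and 171 in the arrays labelled female and 97.2 and 244 in those labelled male. Every 8-week array lay above every 1-week array. It was higher at 8 weeks by 1.25 ± 0.18 (log2 ± SE, adjusted p = 3.80e-04). The call stayed under all 25 alternatives in which it had a value. Zic2 passed the filter through its 8-week arrays, so a difference was built into its being tested, and most alternatives kept that filter. The pseudocount of 24 makes such a change of a dim gene look smaller than it is.

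Zic4, a neighbour of Zic1 on the opposite strand of chromosome 9, went the other way in its brighter probe set. It ran from 129 through 184 to 223 at 1 week and read 101, 103, 84.5 and 108 at 8 weeks, without overlap. Its change was -0.67 ± 0.14 (adjusted p = 0.00318), and on the deposited scale the call was lost at -0.23. The dimmer probe set of Zic4 changed by -0.19 ± 0.20 and did not pass (adjusted p = 0.481), with overlapping ages.

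Zic1 was not called. It ran from 598 through 1252 to 2081 at 1 week and read 2045, 1827, 837 and 2373 at 8 weeks, so that 1 of the 8-week arrays lay below the 1-week median. The change was 0.56 ± 0.38 (adjusted p = 0.26). On the deposited scale it passed (1.09, adjusted p = 0.0105), and without replicate 1 of either label at 1 week it was 0.13 (adjusted p = 0.735). Zic5, the neighbour of Zic2, changed by 0.10 ± 0.17 (adjusted p = 0.666). Its 8-week arrays ran from 83.1 to 179 and its 1-week arrays from 69.6 to 152. Within both neighbouring pairs, then, 1 gene was called and the other was not; the difference between their changes was not tested.

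The sequence before the start of 4 genes is shown, because Zic1 and Zic4 are neighbours that differed in their call and Dlx1 and Nkx2-2 are among the members that fell most. RefSeq's table for GRCm38.p6 matched 63 of 88 member genes. The 250 bases before the listed start are in lower case, with capitals for TAAT, the core that most homeodomains bind, and for TGACAG, a site of MEIS proteins, on either strand.
Zic1 (chr9:91365769-91366018, minus strand): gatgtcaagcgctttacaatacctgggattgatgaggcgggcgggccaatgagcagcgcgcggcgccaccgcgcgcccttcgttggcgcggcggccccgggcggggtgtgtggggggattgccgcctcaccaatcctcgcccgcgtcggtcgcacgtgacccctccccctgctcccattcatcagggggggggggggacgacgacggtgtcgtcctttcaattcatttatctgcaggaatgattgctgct
Zic4 (chr9:91368722-91368971, plus strand): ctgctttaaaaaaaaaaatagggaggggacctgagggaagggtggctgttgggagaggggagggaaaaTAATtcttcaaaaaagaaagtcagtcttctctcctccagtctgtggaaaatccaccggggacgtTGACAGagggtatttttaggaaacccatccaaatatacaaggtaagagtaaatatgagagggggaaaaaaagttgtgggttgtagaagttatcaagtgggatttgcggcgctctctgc
Dlx1 (chr2:71529195-71529444, plus strand): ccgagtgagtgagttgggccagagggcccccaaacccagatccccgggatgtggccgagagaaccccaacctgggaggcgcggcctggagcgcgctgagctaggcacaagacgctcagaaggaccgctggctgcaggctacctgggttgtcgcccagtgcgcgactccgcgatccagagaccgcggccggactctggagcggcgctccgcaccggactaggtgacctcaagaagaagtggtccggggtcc
Nkx2-2 (chr2:147186403-147186652, minus strand): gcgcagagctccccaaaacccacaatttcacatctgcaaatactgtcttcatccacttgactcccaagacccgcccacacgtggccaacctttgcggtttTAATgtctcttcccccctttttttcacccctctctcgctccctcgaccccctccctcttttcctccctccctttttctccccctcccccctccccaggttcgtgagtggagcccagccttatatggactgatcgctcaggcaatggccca

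Zic1 and Dlx1 had GC-rich stretches, with 66.0% and 68.0% G and C and 27 and 22 CpG dinucleotides, and neither motif. Zic4 had 44.4% G and C, 4 CpG dinucleotides, 1 TAAT and 1 TGACAG, and Nkx2-2 had 56.4%, 8 CpG dinucleotides and 1 TAAT. Over the 74 stretches of member genes the median was 60.4% G and C, against 52.4% for all 32851, and the median ratio of observed to expected CpG was 0.647 against 0.373. TAAT lay in 54.1% of the members' stretches and 54.9% of all, and TGACAG in 18.9% and 15.9%. A match is a run of letters, and no match says only that the letters are missing from this window.

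Several factors of the cerebellum followed the cerebellar markers from array to array, a pattern picked out after the values were seen. The granule cell list, in which Gabra6 went from a mean of 65.3 to 1166, had 8 measured genes with a summed intensity from 2859 to 4808 at 1 week and from 3203 to 10993 at 8 weeks. All 8 were above background, and 4 rose and 0 fell. At 1 week the 2 lowest sums, 2859 and 3145, belonged to replicate 1 labelled male and replicate 1 labelled female. The same arrays had the 2 lowest values of Zic1, at 598 and 610, and of Pax6, at 57.3 and 88.5. The highest sum, in replicate 3 labelled female, came with the highest Zic1 and Pax6, at 2081 and 220. At 8 weeks the lowest sum, in replicate 1 labelled male, came with the lowest Zic1 (837), Zic2 (97.2), Pax6 (117) and Lhx1 (38.2), and the highest sum, in replicate 2 labelled male, with the highest of all 4. For Zic2 no such order was seen at 1 week, where its highest array, at 63.6, had the lowest granule sum.

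Lhx1, a LIM homeobox factor that marks Purkinje cells, varied widely between arrays of both ages. Its arrays read 29.7, 148 and 194 in replicates 1 to 3 labelled female at 1 week, 9.67, 107 and 82.9 in those labelled male, and 84.0, 104, 38.2 and 180 at 8 weeks. The Purkinje list, with 6 genes above background of which 4 rose and 0 fell, ran in the same order within each age. Its sums were 1729, 3430 and 4214 in the arrays labelled female at 1 week, 1467, 3144 and 2754 in those labelled male, and 7817, 7974, 3749 and 12186 at 8 weeks. Lhx1 changed by 0.22 ± 0.50 with age (adjusted p = 0.755), and by -0.40 without replicate 1 of either label at 1 week (adjusted p = 0.361). Pax6, a paired-box factor of cortical progenitors and granule cells, ran from 57.3 through 169.9 to 220.4 at 1 week and read 195, 166, 117 and 289 at 8 weeks. It changed by 0.36 ± 0.33 (adjusted p = 0.4), and by -0.02 without those 2 arrays (adjusted p = 0.952). These values are of its brightest probe set. The others were below background, with means of 55.3, 46.7, 33.2 and 5.93. At 1 week those at 46.7 and 5.93 were also lowest in replicate 1 of both labels, and those at 55.3 and 33.2 were not. The part of cerebellar content in these values was not tested.

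**Figure D3:**
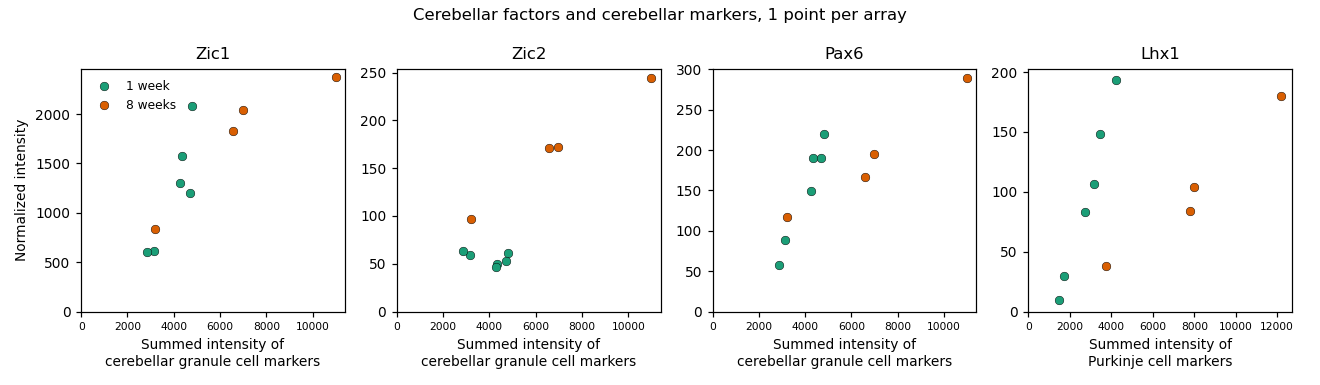
Each point is 1 array, with the summed normalized intensity of cerebellar granule cell markers (Zic1, Zic2, Pax6) or Purkinje cell markers (Lhx1) on the horizontal axis, the factor's normalized intensity on the vertical axis, and colour for age. Zic1 and Pax6 are lowest where the granule sum is low and highest where it is highest at both ages, Zic2 reads 47.0 to 63.6 in every 1-week array, and Lhx1 reads 148 at a Purkinje sum of 3430 at 1 week and 38.2 at a sum of 3749 at 8 weeks.

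Of the factors of ventral forebrain GABA neurons, Dlx1 and the brighter of the Lhx6 probe sets were lower at 8 weeks. Lhx6, which directs the migration and fate of cortical interneurons, ran from 128 through 186 to 290.1 at 1 week and read 109, 86.6, 93.5 and 92.6 at 8 weeks. The ages did not overlap. The brighter probe set changed by -0.81 ± 0.19 (adjusted p = 0.00658, and -0.36 with adjusted p = 0.0697 on the deposited scale) and the dimmer by -0.18 ± 0.10 (adjusted p = 0.152), where 1-week values of 78.5 to 108 overlapped those of 8 weeks.

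Dlx1, a distal-less factor of the same neurons, ran from 68.9 through 107 to 181 at 1 week and read 80.3, 23.9, 46.7 and 40.3 at 8 weeks. Only replicate 1 labelled female at 8 weeks lay inside the 1-week range. Dlx1 had an 8-week mean of 47.8, under 73.9, so it passed the filter through its 1-week arrays. The change was -0.91 ± 0.26 (adjusted p = 0.0146), and the call was lost without replicate 2 labelled female at 8 weeks (-0.63, adjusted p = 0.0642). Dlx1 was the member that fell on the deposited scale too (-0.54, adjusted p = 0.0423). Its chromosomal neighbour Dlx2 was below background, with 48.4 to 81.7 at 1 week and 17.7 to 51.1 at 8 weeks.

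Markers of GABA neurons did not share that direction. Of 8 listed genes above background 5 rose and 0 fell, among them Gad1, which makes GABA and went from a mean of 940.2 to 1523. The 8-week sums, from 7076 to 8929, lay above all 1-week sums, which reached 5407. Most of that rise was Pvalb, from a mean of 167 to 1861. Sst (-0.22 ± 0.12), Npy (0.18 ± 0.15) and Calb2 (0.18 ± 0.17) were not called. Within ages Dlx1, Lhx6 and Six3 were all highest in replicate 1 labelled female, at 181, 290.1 and 144 at 1 week and at 80.3, 109 and 100.03 at 8 weeks. Striatal markers also had their highest sum of each age in that array, 2564 at 1 week and 4234 at 8 weeks. Six3, an eye and forebrain factor, ran from 73.1 through 102 to 144 at 1 week and read 100.03, 85.2, 87.5 and 78.5 at 8 weeks, inside the 1-week range. It changed by -0.17 ± 0.14 and did not pass (adjusted p = 0.361). The other probe sets of Six3 were below background, with means of 4.26 and 0.77. The part of striatal content in these values was not tested.

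Lhx2, a selector of cortical identity, was not called. It ran from 196 through 288 to 388 at 1 week and read 258, 242, 269 and 197 at 8 weeks, with a change of -0.25 ± 0.16 (adjusted p = 0.244). Lhx3, a factor of pituitary and motor neurons, changed by -0.03 ± 0.11 (adjusted p = 0.864). Prl and the other pituitary markers varied widely at 8 weeks, with sums from 4216 to 16718 over 9 genes, where Lhx3 lay between 73.2 and 108. At 8 weeks both were highest in replicate 1 labelled female, but the next highest sum, 7279 in replicate 1 labelled male, came with the lowest Lhx3. At 1 week the highest sum, 4310 in replicate 2 labelled female, came with an Lhx3 of 77.7, near its lowest of 76.3. The other probe set of Lhx3 was below background, with a mean of 37.3. Dlx4 ran from 64.3 to 93.9 and from 83.9 to 102 at 1 and 8 weeks and changed by 0.11 ± 0.09 (adjusted p = 0.359). Lhx4, Lhx5, Dlx3, Dlx6, Dlx1as and Dlx6os2 were below background.

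Nkx2-2, a homeobox factor of the oligodendrocyte lineage and of ventral neurons, ran from 189 through 238 to 368 at 1 week and read 125, 143, 142 and 153 at 8 weeks. The ages did not overlap and the change was -0.73 ± 0.15 (adjusted p = 0.00234). On the deposited scale the call was lost at -0.25. Of 6 oligodendrocyte precursor markers 4 fell and 0 rose, which became 2 and 2 on the deposited scale, and of 7 mature oligodendrocyte markers above background 5 rose and 0 fell. Mobp, a myelin protein gene, went from 272 to 2395.

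Nkx6-2, a factor of myelinating oligodendrocytes, was below background by its mean. It read 5.66 to 20.1 at 1 week and 47.1 to 66.0 at 8 weeks, without overlap. Without a filter, where 29.9% of all 22626 probe sets were called, 6 of the 85 members below background passed. These were Nkx6-2 (1.22 ± 0.11, adjusted p = 6.88e-05), Nkx2-9 (1.17 ± 0.13, adjusted p = 2.09e-04) and Nkx2-6 (0.71 ± 0.07, adjusted p = 1.18e-04), which were higher, and Dlx2 (-0.65 ± 0.16, adjusted p = 0.014) and both probe sets of Lhx9 (-0.57 and -0.35), which were lower. Most of these arrays read under 73.9, and Nkx2-6, Dlx2 and the brighter probe set of Lhx9 overlapped between ages. Nkx2-6 lay between 12.2 and 18.0 at 1 week. At 8 weeks it read 22.4 and 17.5 in arrays labelled female and 68.3 and 68.8 in those labelled male. Most of its rise thus lay in the arrays labelled male, and its SE measures only the spread within groups of age and label. Nkx2-5, known from the heart, lay between 114 and 141 at 1 week and between 92.7 and 112 at 8 weeks, a change of -0.19 ± 0.08 (adjusted p = 0.0725). Nkx2-3 ran from 76.5 to 108 and from 68.8 to 99.2 and changed by -0.07 ± 0.10 (adjusted p = 0.593). Nkx1-2, Nkx2-4, Nkx3-2 and Nkx6-1 were below background.

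All 4 Pou3f genes, the class III POU factors of progenitors, upper-layer cortical neurons and myelinating glia, had a probe set above background. Of their 5 probe sets above background 4 fell, for 3 genes, against 24% of all probe sets tested. The 8-week means of Pou3f3 (70.0) and both probe sets of Pou3f1 (66.2 and 61.8) lay under 73.9. These passed the filter through their 1-week arrays, so a difference was built into their being tested. Pou3f1, known as Oct6 and a regulator of Schwann cell myelination, ran from 66.5 through 126 to 159 at 1 week and read 45.1, 70.9, 97.6 and 51.2 at 8 weeks. The ages overlapped through replicate 3 labelled female at 1 week and 2 of the 8-week arrays. Its brighter probe set changed by -0.69 ± 0.20 (adjusted p = 0.0191) and the dimmer one by -0.72 ± 0.23 (adjusted p = 0.0253).

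The call depended on single arrays. In the brighter probe set it was lost on the deposited scale (-0.29, adjusted p = 0.152), without replicate 1 labelled female at 8 weeks (-0.57, adjusted p = 0.0789), without replicate 2 labelled male at 8 weeks (-0.51, adjusted p = 0.0873) and without replicate 1 of either label at 1 week (-0.60, adjusted p = 0.0574). Within ages Pou3f1 and Lhx2 were highest in the arrays with most cortical projection neuron markers. At 1 week that was replicate 1 labelled female, with a marker sum of 1843, and the lowest was replicate 3 of that label in all 3 measures, with a sum of 737. At 8 weeks replicate 1 labelled male had the highest sum, 1982. The part of cortical content was not tested.

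Pou3f3 and Pou3f4 changed little. Pou3f3, or Brn1, ran from 79.9 through 91.2 to 111 at 1 week and read 55.6, 73.8, 75.8 and 74.6 at 8 weeks, a change of -0.29 ± 0.10 (adjusted p = 0.0305). Pou3f4, or Brn4, ran from 84.8 through 96.0 to 106 and read 73.6, 89.7, 75.7 and 80.4, a change of -0.22 ± 0.08 (adjusted p = 0.039). The call was kept in 12 of 25 alternatives for Pou3f3 and in 7 of 25 for Pou3f4, and both signs turned on the deposited scale, to 0.10 and 0.19. Pou3f2, or Brn2, went the other way without passing (0.45 ± 0.26, adjusted p = 0.19), with 1-week arrays from 43.2 through 90.0 to 149.9 and 8-week arrays at 139, 137, 142 and 109. Leaving out replicate 1 of the label female at 1 week brought a call (0.62, adjusted p = 0.043).

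**Figure D4:**
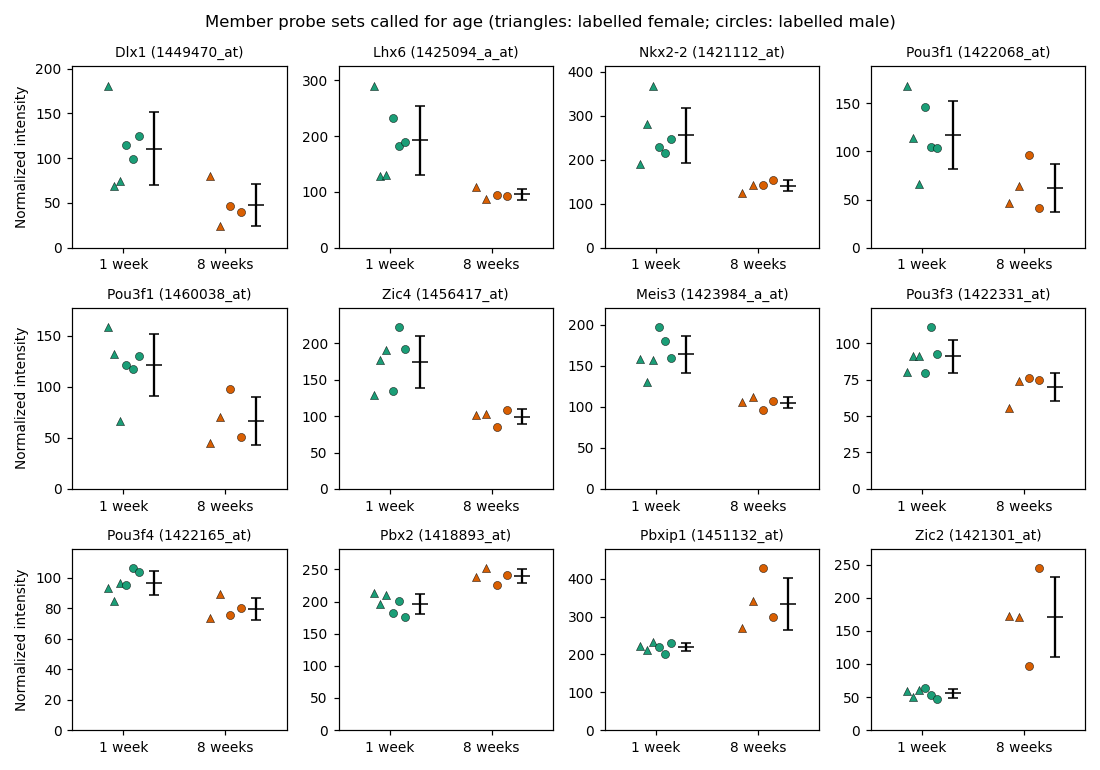
Panels show the 12 member probe sets called for age, with 1 point per array, age on the horizontal axis, normalized intensity from 0 on the vertical axis, triangles for labelled female, circles for labelled male, and a bar for mean ± SD (n = 6 and 4). Lhx6, Nkx2-2, Zic4, Meis3, Pou3f3, Pbx2, Pbxip1 and Zic2 do not overlap between ages, while Dlx1, Pou3f1 and Pou3f4 do.

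The DNA-binding partners of the HOX proteins moved by less than 2-fold. Meis3, a TALE homeobox factor of hindbrain patterning, ran from 131 through 159 to 197 at 1 week and read 106, 112, 95.8 and 107 at 8 weeks, without overlap. It fell by 0.53 on the log2 scale (SE 0.09, adjusted p = 6.13e-04), and its call was lost on the deposited scale (-0.08, adjusted p = 0.601) and with spike-in scaling (-0.35, adjusted p = 0.0618). Meis2, prominent in the striatum and other forebrain neurons, ran from 419 through 471 to 579 at 1 week and read 527, 386, 485 and 441 at 8 weeks, with overlap, and was not called (-0.08 ± 0.12, adjusted p = 0.596). Meis1 was below background, from 5.94 to 158 at 1 week, lowest in replicate 1 of both labels, and from 23.96 to 99.7 at 8 weeks.

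Pbx2, a broadly made PBX factor, ran from 176 through 198 to 213 at 1 week and read 238, 252, 226 and 242 at 8 weeks. The ages did not overlap, and the change was small, 0.26 ± 0.07 (adjusted p = 0.0129). Its other probe sets changed by 0.16 ± 0.09 and 0.42 ± 0.19 without passing, and the call was lost without replicate 2 of either label at 8 weeks (adjusted p = 0.0501 and 0.0507). Pbx3 ran from 274 through 319.6 to 423 at 1 week and read 355, 286, 287 and 301 at 8 weeks and was not called (-0.12 ± 0.12, adjusted p = 0.454). Pbx4 was below background. Pbxip1, whose product binds PBX factors, ran from 201 through 221 to 232 and read 269, 341, 427 and 298, a rise of 0.54 ± 0.11 (adjusted p = 0.00256). A second probe set of Pbxip1 did not follow it (-0.06 ± 0.10, adjusted p = 0.659). Without the 4 arrays opposed by their sex transcripts the calls of Pbx2 (adjusted p = 0.1) and Pbxip1 (adjusted p = 0.063) were lost at like changes of 0.27 and 0.50.

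Hox genes were mostly unreadable, and 0 of the 4 readable probe sets were called. Of 32 Hox genes, 29 had no probe set above background, and there single arrays reached at most 168, in Hoxa5. These were Hoxa2, Hoxa3, Hoxa4, Hoxa5, Hoxa7, Hoxa10, Hoxa11, Hoxa11os, Hoxa13, Hoxb1, Hoxb3, Hoxb4, Hoxb5, Hoxb6, Hoxb7, Hoxb9, Hoxb13, Hoxc4, Hoxc5, Hoxc8, Hoxc9, Hoxc13, Hoxd1, Hoxd8, Hoxd9, Hoxd10, Hoxd11, Hoxd12 and Hoxd13. Hoxb2, a factor of hindbrain segments, ran from 104 through 122 to 234 at 1 week and read 118, 169, 199 and 215 at 8 weeks. It was not called (0.30 ± 0.16, adjusted p = 0.149), and passed without replicate 2 labelled female at 1 week, its highest array there (0.43, adjusted p = 0.0114). On the deposited scale, where 68.5% of all probe sets were called, Hoxb2 (0.76), Hoxa9 (0.63) and the brighter probe set of Hoxc6 (0.46) passed as higher. Both probe sets of Hoxc6 above background lay close between ages, at -0.03 ± 0.08 and 0.08 ± 0.08, with 177 to 221 at 1 week and 167 to 223 at 8 weeks in the brighter. Another probe set of Hoxc6 was below background, with a mean of 2.54. Hoxa9 ran from 39.4 to 161 and from 80.04 to 137 and changed by 0.24 ± 0.21 (adjusted p = 0.386). Its other probe set was below background, with a mean of 3.77. 

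At 1 week 13 of 38 Hox probe sets had their highest value in replicate 2 labelled female, against 2 to 7 in each other array. Besides Hoxb2, 4 dim genes among these were picked out after their values were seen. This array read 168 for Hoxa5, 111 for Hoxb5, 87.1 for Hoxb3 and 87.4 for Hoxb6, where the other 1-week arrays reached at most 65.3, 25.8, 45.1 and 58.3. By their means these 4 were below background. That array also had the highest 1-week sums of mature oligodendrocyte (11864), pituitary (4310.4) and skeletal muscle markers (635). Replicate 3 labelled female came next for oligodendrocytes (11084) and muscle (610). Of the 5 markers of spinal cord and brainstem motor neurons measured, 0 were above background. Their sum in replicate 2 labelled female, 216, was the lowest at 1 week, where sums reached 300. The part of tissue content in these values was not tested.

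Of the paired-box and sine oculis genes besides Pax6 and Six3, Pax8 and Six2 were above background and were not called. Pax8 lay between 104 and 115 at 1 week and between 117 and 128 at 8 weeks, which did not overlap, and its change was 0.10 ± 0.07 (adjusted p = 0.229). Six2, known from kidney development, ran from 119 to 208 and from 112 to 167 and changed by -0.05 ± 0.13 (adjusted p = 0.782). Pax1, Pax3, Pax4, Pax5, Pax7, Pax9, Six4, Six5, Six6 and Otx2 were below background. Otx2, which marks the choroid plexus and the midbrain, ran from 34.2 to 68.6 at 1 week and from 5.20 to 42.5 at 8 weeks. Lhx8, of forebrain cholinergic neurons, read at most 59.8, and Nkx2-1, of the ventral forebrain, at most 52.5. Dlx5 ran from 49.3 to 142 at 1 week.

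The counts of related genes outside the rule stand against 24% lower and 22% higher among all probe sets tested, and their balance turned on the deposited scale. Of 18 other homeobox and regional factors above background 1 rose and 4 fell, with a median change of -0.14. Msx1, a factor of the dorsal midline, rose (1.26 ± 0.30), and Fezf2, of deep-layer cortical neurons (-0.71 ± 0.24), and Nr2f2, of caudal ganglionic interneurons (-0.67 ± 0.13), fell. Without normalization Msx1 stayed called (1.77), Fezf2 (-0.32) and Nr2f2 (-0.17) did not, and the counts were 6 and 0, and with spike-in scaling 3 and 3. Of 20 cofactors 1 rose and 7 fell, with a median of -0.17. Tgif2, a TALE repressor, fell most (-1.53 ± 0.20), followed by Ldb2, which bridges LIM homeobox proteins (-0.96 ± 0.28), and Lmo1, a LIM-only protein gene (-0.81 ± 0.10), and Ssbp3, a partner of LDB proteins, rose (0.29 ± 0.09). Without normalization Ldb2 was not called (-0.44, adjusted p = 0.0667), Lmo1 was (-0.33) and Tgif2 was not among the genes tested. The counts there were 9 and 1, and with spike-in scaling 2 and 2. The 8-week means of Tgif2 (29.8) and Fezf2 (58.1) lay under 73.9. Both passed the filter through their 1-week arrays, so a difference was built into their being tested.

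Polycomb and Trithorax proteins keep Hox genes silent or active. Of 15 such genes above background 2 rose and 6 fell, with a median of -0.16. Ezh2 (-0.97 ± 0.13) and Rnf2 (-0.90 ± 0.11), which modify histones H3 and H2A, fell, and Ezh1, the relative of Ezh2 in non-dividing cells, rose (0.83 ± 0.08). These 3 kept their direction and call on the deposited scale, at -0.57, -0.40 and 1.31. There the list had 7 higher and 2 lower, and with spike-in scaling 3 and 3. Ezh2 had an 8-week mean of 56.8, under 73.9, so it passed the filter through its 1-week arrays. Progenitor and dividing-cell markers fell beside Ezh2 and Rnf2, 6 of 8 with 1 rising. Their sums went from between 5094 and 6158 at 1 week to between 1654 and 1894 at 8 weeks. Most of that drop was Fabp7, from a mean of 3514 to 448. Nes stayed at a mean of 231, and Prom1 rose from 130 to 227. On the deposited scale 3 of these 8 fell and 2 rose. Their part in these falls was not tested.

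Of 8 astrocyte markers 5 rose and 0 fell, of 7 microglial markers 7 rose, and of 8 meningeal and fibroblast markers above background 1 rose and 4 fell. The meningeal sum was 13515 in replicate 3 labelled female at 1 week. The other 1-week arrays ran from 5196 to 7329 and the 8-week arrays from 6999 to 7654. Zic1 and Otx2 had their highest 1-week values, 2081 and 68.6, in replicate 3 labelled female. The choroid plexus sum of that array, 5057, was the lowest at 1 week. Of 5 pituitary markers above background 3 rose and 0 fell, and for choroid plexus (3 above background), pineal gland and retina (1) and skeletal muscle (2) 0 were called.

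Age changes did not differ detectably between the labels. For the interaction of age and labelled sex limma called 0 of 36 members, with 1 at an unadjusted p under 0.05, and 0 of all 13576 probe sets, which is 0% with 759 at that unadjusted p. At 1 week the labels do not follow the sex transcripts, so this comparison does not speak of sex.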

How the data were processed

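The deposited values were 1 intensity per probe set and array on a linear scale. The authors' software for summarising probes is not given in the sources used here. Of 22690 probe sets, 64 array controls were left out. The rest were quantile-normalized, 24 was added (the 20th percentile over the deposited table) and log2 taken. The annotation gave 1 symbol for 20380 probe sets, several for 691 and none for 1555. Linear models with 1 term per group of age and labelled sex were run with lmFit and eBayes of limma 3.58.1 under R 4.3.3, and two-sided p-values were adjusted by Benjamini-Hochberg over 13576 probe sets. The number of arrays limits precision. Every member above background is accounted for, and a gene was shown by its brightest probe set. Lhx1, Nkx2-3, Pou3f4 and Zic5 also had probe sets below background, which are not described here. Array values were given for called genes and a fixed panel, of which some genes, among them Emx2 and Otx1, were not analysed here. In each related list the 3 largest called changes were named. Members and lists were chosen with earlier results of these data known. Marker lists also covered astrocytes, microglia, meninges, choroid plexus, pineal gland and muscle. Tested on simulated data with 22626 probe sets, the age model recovered 56.1% of changes of 0.5 (log2) and 93.9% of changes of 1. Only 98 and 99 tested probe sets were given these changes, where in the data 46.0% were called. The members were also dimmer than all tested, so these rates need not hold for them.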

Additional observations from a re-analysis of the deposited data

Results flagged for a closer look

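Among 58 sets of arrays of 1 gene at 1 age, 6 had an array farther from the others than Dixon's 95% limit, where chance gives about 1 in 20. At 1 week Hoxb2 read 234 in replicate 2 labelled female, with 135 as the next highest. Nkx2-5 read 141 in replicate 2 labelled male, next to 121, and Nkx2-3 read 108 in replicate 1 labelled female, next to 86.6. At 8 weeks Dlx4 read 102 in replicate 2 labelled male, next to 85.0. Pou3f2 read 109 in that same array, below the 137 of the next lowest, and Pou3f3 read 55.6 in replicate 1 labelled female, below 73.8. Hoxb2 and Pou3f3 are the cases in which leaving out the array changed a call.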

How the results depend on the processing

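Each alternative changed 1 choice, except that dropping the 4 arrays opposed by sex transcripts went with a model of age alone. Shares of all probe sets called stand in brackets. Members above background numbered 74 with the filter at the 20th percentile and 8 at the 60th, where 3 were called, 1 of them lower (52.7%). Without normalization 22 were called, 1 lower and 21 higher (68.5%), and signs turned for Meis2 (0.44), Pbx3 (0.40), Hoxc6 (0.46), Six2 (0.42), Pou3f4 (0.19), Lhx3 (0.38), Nkx2-3 (0.33) and Pou3f3 (0.10). Another 36 values of genes not called turned sign without gaining a call. With spike-in scaling (39.6%) 6 were higher, as without a filter (29.9%). Age alone without those 4 arrays gave 6 called, 4 lower (29.8%), where age alone with all arrays gave 12 (46.5%). Without both replicates 1 at 1 week 5 were lower (43.2%). Labelled female arrays alone gave 3, 2 lower and 1 higher (30.6%), and male alone 7, 3 lower (32.1%). An adjusted p under 0.01 left 6, 4 lower (31.9%), and a 2-fold minimum 1, 0 lower and 1 higher (6.21%). Leaving out each array gave 7 to 12 called and 5 to 8 lower. Same-numbered arrays, as deviations from their group means, correlated from -0.0251 to 0.19 over 13 pairs, 5 above 0.1, and 8 of 10 correlated best with their own number. In the 8-week groups the deviations of the 2 arrays mirror each other, so the pairs are not independent. A replicate block gave 14 called, 5 of them higher (43.5%). With it Zic1 (0.84, adjusted p = 0.0235) and Lhx2 (-0.37, adjusted p = 0.0357) passed and Pou3f4 (-0.20, adjusted p = 0.102) did not. Other pseudocounts, median scaling, age alone, an intensity trend and array weights kept all 3 counts within 1.5 times. Of 272 values of the 11 called genes 218 kept sign and call and 52 lost the call. The interaction stayed at 0 throughout.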
